A study of Mus musculus with 16 samples.

Results

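Among 62 mouse genes that encode Wnt ligands, their receptors and the proteins that relay or block the signal, Wnt7b, a secreted Wnt ligand, was higher in cultured neurons given the peptide NP24 or the peptide Tβ10 than in cultures given DPBS, a buffered salt solution. Each of these Wnt7b differences passed the test with all libraries kept, but missed it when certain single libraries were left out. The margin for Tβ10 was close to the threshold of the test. Wif1, a secreted protein that binds Wnt ligands and blocks them, was higher after NP24, also by a margin close to the threshold. No gene of the family passed the test after the peptide Tβ4, where 0% of all genes tested passed. Another method, DESeq2, and the authors' deposited table had the family genes Daam2 and Apcdd1 passing there. Wnt7b also differed between peptides, being higher in NP24 and in Tβ10 cultures than in Tβ4 cultures. These differences passed in a fit of all 16 libraries, but not in fits of only the 8 compared.

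The genes were chosen by name, by a rule that used no measured value but was written with earlier results of these data known. The rule took protein-coding genes whose symbol is that of a Wnt, R-spondin, Frizzled, Lgr4 to Lgr6, Lrp5, Lrp6, Dickkopf, secreted Frizzled-related, Axin, Dishevelled or Daam gene, or is Wif1, Notum, Znrf3, Rnf43, Apcdd1, Ctnnb1, Lef1, Tcf7 or Tcf7l1. They are 62 of the 45724 genes measured. By role they are 23 ligands, 15 receptors and coreceptors, 10 secreted inhibitors, 3 membrane inhibitors, 8 genes of the cytoplasmic relay and 3 nuclear factors. In the best-known branch of the pathway, a secreted Wnt bridges a Frizzled receptor and the coreceptor Lrp5 or Lrp6, Dishevelled is recruited, and the Axin complex stops degrading β-catenin, which then enters the nucleus and acts with Lef1 and the Tcf proteins. Another branch acts through Dishevelled and the Daam proteins on the cytoskeleton. In the developing brain the pathway is known for patterning, progenitor division, growth of dendrites and axons, and the growth of blood vessels.

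The cultures were primary neurons from the brains of newborn (P0) C57BL/6 mice, with no transgene or mutation named in the labels. There were 4 groups of 4 libraries each: cultures with NP24, with Tβ10 or with Tβ4 added, and control cultures with DPBS added. The series title presents these peptides as products of the subcommissural organ, a small gland of the brain ventricles; Tβ10 and Tβ4 carry the usual abbreviations of thymosins, small proteins that bind actin monomers. Dose, duration and the number of animals behind a library are not given in the sources used here, nor is it stated whether libraries of 1 group came from different cultures. Each p below is therefore set against the spread among 4 libraries of unstated origin, which may be technical.

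Values are normalized counts: reads per gene, which the authors had scaled by a size factor for each library. Libraries held 11642242 to 38254320 reads in genes, and 1 read was worth 0.536 to 1.71 normalized counts. The markers of the label were present: neuronal genes such as Map2, Tubb3 and Snap25 were measured in every library, 11 of 11 neuronal markers were tested, and their summed level was 79024 to 85166 normalized counts with NP24, 79013 to 85225 with Tβ10, 59109 to 85188 with Tβ4 and 70191 to 77594 in control. The cultures also held RNA of other cells, with summed astrocyte markers of 10400 to 11186 with NP24, 8560 to 12382 with Tβ10, 10796 to 14649 with Tβ4 and 8570 to 10356 in control. Tβ4 library 1 stood apart: 24.3% of its normalized counts came from the 2 mitochondrial ribosomal RNAs, and it alone had reads for 62 of 62 members, against 52 to 61 in the other libraries. In such mixed RNA, fewer cells of a type and less RNA per cell cannot be told apart.

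In control cultures 2 relay genes were the most abundant members, while the other relay genes lay among receptors, ligands and inhibitors. On the scale of normalized counts per kb of exon, which allows genes to be compared, Ctnnb1, the gene of β-catenin, stood at 860 ± 27.1 and Daam1, a formin that links Dishevelled to actin, at 851 ± 55.9 (SD, n = 4). Their ranges overlapped, and both lay above every other member. The receptor Fzd3, known for axon guidance, followed at 334 ± 47.4 per kb, with the secreted inhibitor Sfrp1 at 324 ± 14.8 and the Dishevelled gene Dvl3 at 320 ± 18.0, whose ranges could not be separated. Among ligands, Wnt5b had the highest mean, at 246 ± 24.4 per kb, with Wnt7a at 199 ± 38.6 and Wnt7b at 124 ± 16.8. The range of Wnt7a overlapped those of Wnt5b and Wnt7b. The coreceptor Lrp6 stood at 222 ± 21.01 per kb, and Lrp5 at 52.0 ± 5.68. Tcf7l1, a Tcf protein best known as a repressor, was the most abundant nuclear factor at 163 ± 14.6 per kb, against 29.9 ± 17.1 for Tcf7. The ubiquitin ligase Znrf3, which removes Frizzled receptors from the membrane, stood at 121 ± 10.3 per kb and its relative Rnf43 at 8.39 ± 2.86. Of the 62 members, 18 lay above the median of protein-coding genes with a read in control, which was 61.3 per kb.

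**Figure D1:**
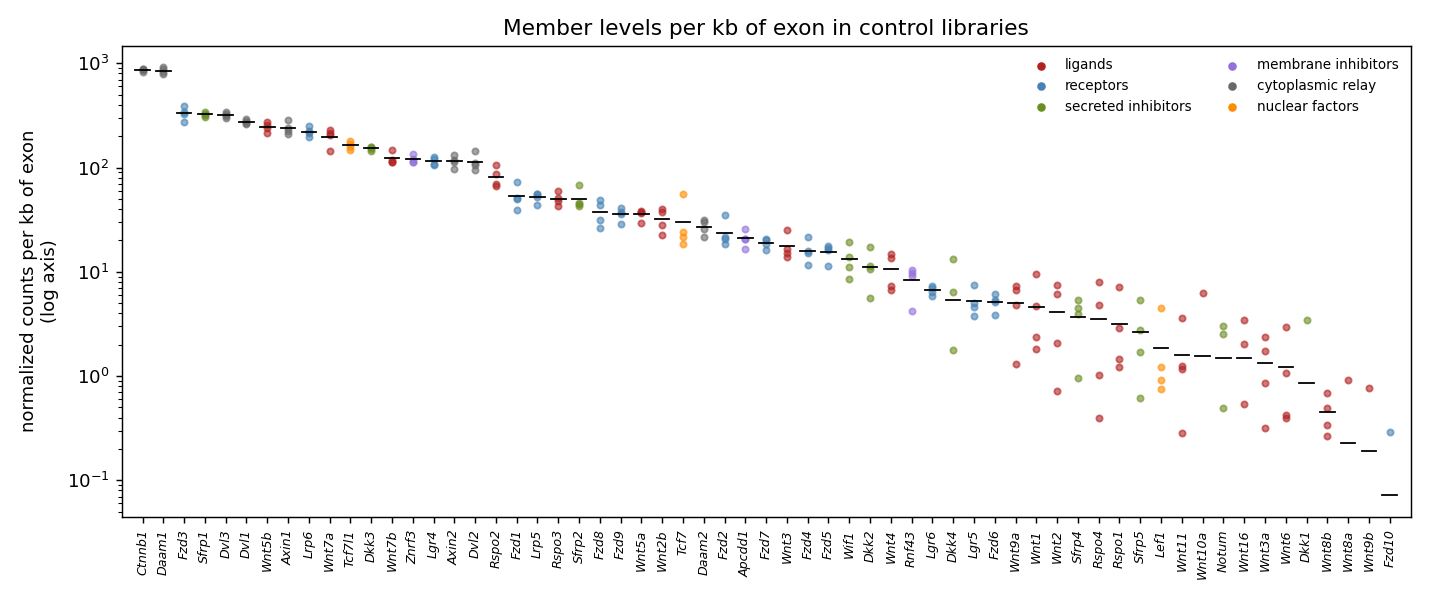
Level of each member with a read in control, in normalized counts per kb of exon on a log axis, ordered by the mean; points are the 4 control libraries, bars the mean over all 4, and colours mark the role. Libraries with no read for a gene have no point. Ctnnb1 at 860 and Daam1 at 851 lie at the left end, and many ligands fall to a few counts per kb or less at the right end.

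Many ligands were too low to compare. A gene was tested only if 4 or more of the libraries in a comparison reached 10 normalized counts, and 46 members met this in all 3 comparisons with control. Wnt1 met it only for Tβ10, Wnt16, Rspo1 and Dkk4 only for the comparisons between peptides, and 12 members in no comparison: Wnt3a, Wnt6, Wnt8a, Wnt8b, Wnt9b, Wnt10a, Wnt10b, Wnt11, Fzd10, Dkk1, Sfrp5 and Notum. Of these 12 and the 3 tested only between peptides, 9 had their highest value in Tβ4 library 1. Wnt3a reached 71.9 normalized counts there, against at most 6.55 in any other library, and Wnt8a reached 43.9 against at most 1.61. Summed over the 15 genes, Tβ4 library 1 held 357 normalized counts and the other 15 libraries 16.5 to 89.5. Low genes at large showed the same: of 5356 protein-coding genes below the filter, 62.1% were highest in that library.

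**Figure D2:**
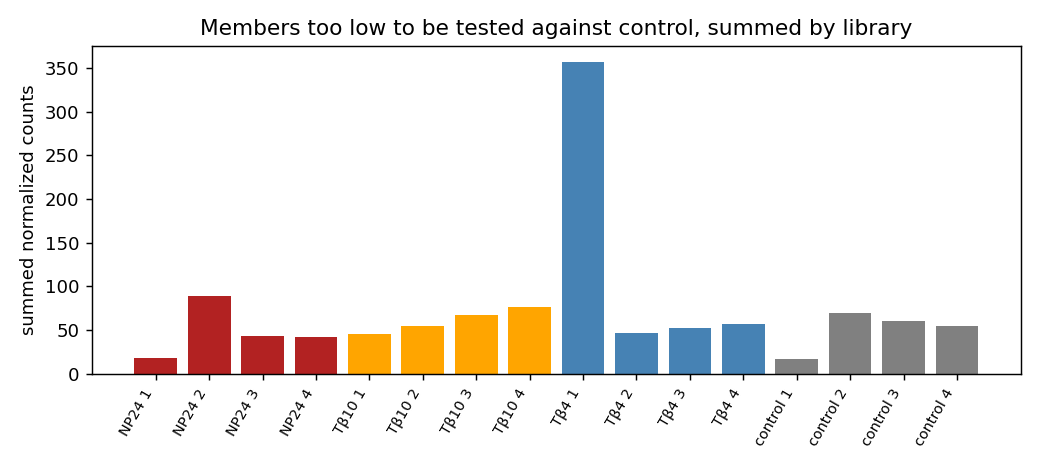
Sum of normalized counts over the 15 members that were too low to be tested against control, one bar for each of the 16 libraries, coloured by group. Tβ4 library 1 stands at 357, and the other libraries lie between 16.5 and 89.5.

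Few members passed the test. For NP24 against control, limma called 2 of 46 members, Wnt7b and Wif1, where it called 2.63% of all genes tested. Both were higher, where 1.16% of all genes were called higher. For Tβ10 against control it called 1 of 47, Wnt7b, where 0.633% of all genes were called and 0.1% were called higher. At an unadjusted p under 0.05 there were 8 of 46 members for NP24 (17% of all genes) and 7 of 47 for Tβ10 (11.2%).

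For Tβ4 against control limma called 0 of 46 members and 0% of all genes. At an unadjusted p under 0.05 it held 4 members and 1568 genes (7.06% of all genes), edgeR called 0 genes, and DESeq2 called 82 genes with Daam2 and Apcdd1 among them. Between peptides, limma called 1 of 50 members for NP24 against Tβ4, where it called 2.09% of all genes, and 1 of 50 for Tβ10 against Tβ4, where it called 1.35%. For NP24 against Tβ10 limma, edgeR and DESeq2 called 0 of 50 members and 0% of all genes, with 2 members at an unadjusted p under 0.05 in limma (2.44% of all genes).

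Across the tested members, the median log2 difference from control was 0.09 for NP24, -0.00 for Tβ10 and 0.15 for Tβ4, where the median of all genes was -0.00 in each. These medians moved with the settings: leaving out 1 library gave -0.01 (without control library 3) to 0.15 (without control library 4) for NP24, -0.04 (without control library 1) to 0.06 (without Tβ10 library 2) for Tβ10 and 0.09 (without control library 1) to 0.23 (without control library 4) for Tβ4. Scaling to library size gave 0.14 for NP24, 0.09 for Tβ10 and 0.06 for Tβ4. Groups did not overlap for 3 of 46 members in NP24 against control (9.84% of all genes), 3 of 47 in Tβ10 against control (6.92%) and 3 of 46 in Tβ4 against control (4.43%). Between peptides they did not overlap for 5 of 50 members in NP24 against Tβ4 (7.54% of all genes), 2 of 50 in Tβ10 against Tβ4 (6.59%) and 1 of 50 in NP24 against Tβ10 (2.11%). The 3 comparisons with control share their control libraries.

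**Figure D3:**
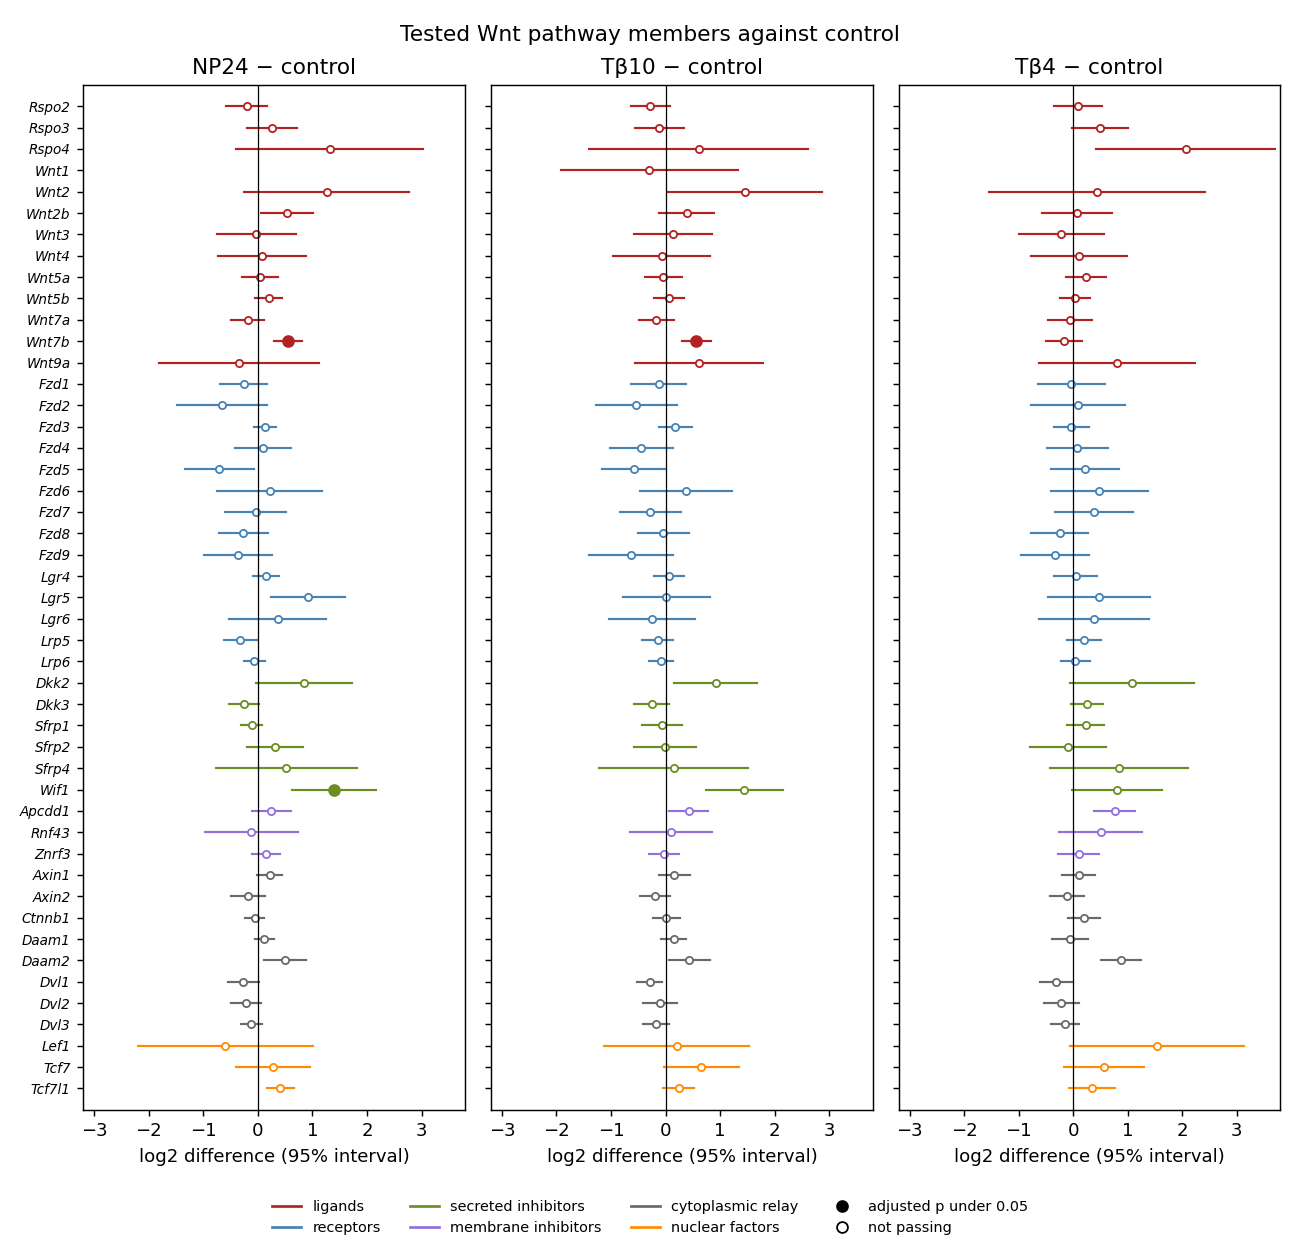
Difference from control in log2(normalized count + 1), with 95% intervals, of every member tested in NP24 (left), Tβ10 (middle) and Tβ4 (right), ordered and coloured by role; filled points have a limma adjusted p under 0.05. Wnt7b is filled for NP24 and Tβ10 and Wif1 for NP24, and the wide intervals belong to low genes such as Rspo4, Wnt2 and Lef1.

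Wnt7b was the only ligand that passed the test in any comparison with control or between peptides. It lies on chromosome 15 (chr15:85535437-85582473, minus strand, GRCm38) and is known for blood vessel growth into the brain and for dendrite growth. NP24 libraries held 1016, 919, 793 and 832 normalized counts. Tβ10 libraries held 839, 902, 921 and 916. Tβ4 libraries held 504, 460, 677 and 528, and control libraries 556, 583, 729 and 559. Every NP24 and every Tβ10 library lay above every Tβ4 and every control library, and the Tβ4 and control ranges overlapped. Group means were 890 ± 99.2 with NP24, 894 ± 37.6 with Tβ10, 542 ± 94.4 with Tβ4 and 607 ± 82.4 in control (SD, n = 4 each).

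On the scale of log2(normalized count + 1), Wnt7b was higher by 0.55 ± 0.12 (SE) in NP24 than in control, with a limma adjusted p of 0.0191 over all genes tested. In Tβ10 it was higher than in control by 0.57 ± 0.12, with a limma adjusted p of 0.0447. For Tβ4 against control the difference was -0.17, with a 95% interval of -0.50 to 0.16 and a limma adjusted p of 0.917. Between peptides, Wnt7b was higher in NP24 than in Tβ4 by 0.72 ± 0.13 (limma adjusted p 0.0066) and in Tβ10 than in Tβ4 by 0.74 ± 0.13 (limma adjusted p 0.00611). The difference of NP24 from Tβ10 was -0.01, with an interval of -0.29 to 0.27. In the authors' deposited table Wnt7b was also below an adjusted p of 0.05 for NP24, at a log2 difference of 0.55 (adjusted p 0.0186), and for Tβ10, at 0.56 (adjusted p 0.0185).

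The Wnt7b calls did not hold in every setting. With the spread of all 16 libraries, Wnt7b missed the threshold for NP24 (limma adjusted p 0.0671) and for Tβ10 (0.0802) against control. For Tβ10 it also missed with the library number as a block (limma adjusted p 0.0813), without a filter on low values (0.0657) and with a pseudocount of 0.1 (0.0527). The call for NP24 against control was lost without NP24 library 1 (limma adjusted p 0.0648) and without control library 1 (0.0965), 2 (0.0637) or 4 (0.0515). The call for Tβ10 against control was lost without Tβ10 library 3 (limma adjusted p 0.167) or 4 (0.121) and without control library 1 (0.209), 2 (0.134) or 4 (0.148). Both differences from Tβ4 rest on a spread taken from all 16 libraries; there they passed whichever single library was left out, but in a fit of only the 8 libraries compared they missed the threshold, with limma adjusted p values of 0.0566 for NP24 and 0.0596 for Tβ10. Wnt7b shares 324 bases of exon, 6.61% of its exon length, with AU022754 on the opposite strand, which averaged 119 normalized counts with NP24, 91.0 with Tβ10, 80.1 with Tβ4 and 72.9 in control. How strand was used in counting is not given in the sources used here, so part of the Wnt7b reads could belong to that gene. Summed neuronal markers also averaged higher with NP24 and Tβ10, at 82731 ± 2680 with NP24, 81099 ± 2875 with Tβ10, 69341 ± 11285 with Tβ4 and 73669 ± 3952 in control. Every NP24 sum (79024 or more) and every Tβ10 sum (79013 or more) lay above every control sum (77594 or less). Within Tβ4, library 2 held the highest sum, 85188, and the lowest Wnt7b value of the 16 libraries, 460. The part of neuronal markers in the Wnt7b values was not tested.

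The other ligands did not pass. Of 12 ligands tested for NP24, 1 was called, of 13 for Tβ10, 1, and of 12 for Tβ4, 0 by limma, edgeR and DESeq2, with 1 at an unadjusted p under 0.05 in limma. Wnt5b, the ligand with the highest mean per kb in control, held 706, 700, 761 and 830 normalized counts with NP24 and 650, 601, 694 and 805 with Tβ10. Tβ4 libraries held 689, 626, 656 and 696 counts of Wnt5b, and control libraries 573, 638, 677 and 726. Wnt7a, the closest relative of Wnt7b, averaged 546 ± 53.2 with NP24, 553 ± 47.3 with Tβ10, 606 ± 124 with Tβ4 and 630 ± 122 in control, and its ranges overlapped in every comparison. Wnt2b, a ligand known from the cortical hem, averaged 195 ± 42.2 with NP24 and 135 ± 34.1 in control, a log2 difference of 0.54 with a limma adjusted p of 0.226. The R-spondin ligand Rspo4 was low, with 34.1, 20.4, 28.3 and 21.3 counts in Tβ4 libraries and 18.9, 0.936, 2.42 and 11.3 in control libraries. These groups did not overlap, and the log2 difference was 2.06 with an interval of 0.41 to 3.71 and a limma adjusted p of 0.609.

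**Figure D4:**
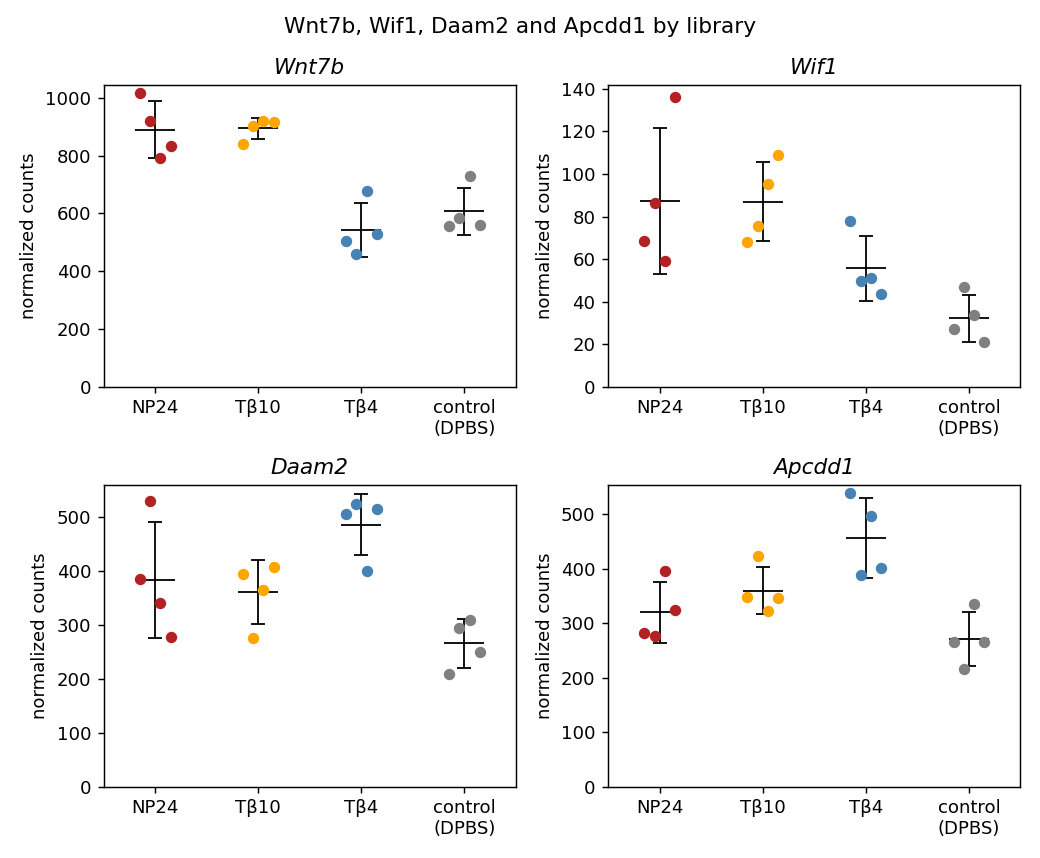
Normalized counts of Wnt7b, Wif1, Daam2 and Apcdd1 in each library (points), with the group mean and SD over 4 libraries (bars). Wnt7b lies at 793 or more in NP24 and Tβ10 and at 729 or less in Tβ4 and control; Daam2 and Apcdd1 are highest on average in Tβ4.

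Receptors did not pass in any comparison with control. Of 15 receptor genes, 14 were tested, and limma, edgeR and DESeq2 called 0 for NP24, Tβ10 and Tβ4; at an unadjusted p under 0.05, limma held 3, 0 and 0. Fzd3 averaged 4667 ± 296 with NP24, 4894 ± 1008 with Tβ10, 4198 ± 708 with Tβ4 and 4281 ± 606 in control. Lgr5, a receptor for R-spondins and a stem cell marker in several tissues, held 108, 104, 58.0 and 146 counts with NP24 and 52.0, 38.4, 46.7 and 76.5 in control. The ranges overlapped, with a log2 difference of 0.92 (limma adjusted p 0.136). Fzd5, a Frizzled receptor known from eye development, averaged 68.9 ± 30.1 counts with NP24 and 108 ± 19.7 in control, a log2 difference of -0.71 (limma adjusted p 0.234). The coreceptor Lrp5 held 499, 409, 385 and 335 counts with NP24 and 545, 522, 563 and 687 with Tβ4. Those peptide groups did not overlap, and the log2 difference of NP24 from Tβ4 was -0.51 (limma adjusted p 0.0605). Lrp6, the more abundant coreceptor, lay at 2889 ± 125 with NP24, 2864 ± 142 with Tβ10, 3109 ± 317 with Tβ4 and 3030 ± 287 in control.

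Wif1 was the secreted inhibitor with the largest difference from control after NP24 and after Tβ10. It lies on chromosome 10 (chr10:121033960-121100650, plus strand, GRCm38). NP24 libraries held 68.6, 86.3, 59.1 and 136 normalized counts, and Tβ10 libraries 68.1, 75.4, 95.5 and 109. Tβ4 libraries held 78.0, 49.96, 51.0 and 43.8, and control libraries 27.2, 46.8, 33.8 and 20.9. All NP24 and Tβ10 libraries lay above all control libraries, whereas the lowest Tβ4 library, at 43.8, lay below the highest control library. The log2 difference from control was 1.40 ± 0.37 for NP24 (limma adjusted p 0.0448), 1.44 ± 0.34 for Tβ10 (0.0589, not passing) and 0.80 ± 0.38 for Tβ4 (0.733). The difference of NP24 from Tβ4 was 0.60, with an interval of -0.08 to 1.29, so Wif1 was not shown to differ between these peptides. Leaving out any 1 of the 8 libraries ended the call for NP24, with limma adjusted p values of 0.0525 to 0.134, as did fitting without a filter on low values (0.0784), with the block (0.065) or with the spread of 16 libraries (0.0579). For Tβ10 it passed in DESeq2 (adjusted p 0.00357), and in limma scaled to library size (0.0486), with a pseudocount of 10 (0.0486) and without Tβ10 library 1 (0.0492) or 2 (0.0485). In the authors' deposited table Wif1 passed for NP24 at 1.45 (adjusted p 0.00583) and for Tβ10 at 1.42 (adjusted p 0.00866). With few reads behind it, Wif1 had wide intervals.

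Among the remaining secreted inhibitors limma, edgeR and DESeq2 called 0 against control, and Dkk2 for Tβ10 was the 1 case at an unadjusted p under 0.05 in limma. Dkk2, a Dickkopf protein that binds the Lrp coreceptors, averaged 80.0 ± 44.6 with NP24, 76.3 ± 19.9 with Tβ10, 108 ± 97.8 with Tβ4 and 41.6 ± 17.5 in control. Its log2 difference for Tβ10 was 0.92 (limma adjusted p 0.329), and Tβ4 library 1 alone held 251 counts. Sfrp1, which binds Wnt ligands, averaged 1307 ± 65.0 with NP24, 1408 ± 425 with Tβ10, 1696 ± 386 with Tβ4 and 1417 ± 64.8 in control. Dkk3, a divergent Dickkopf relative, held 500, 407, 403 and 416 counts with NP24 and 673, 517, 674 and 593 with Tβ4; these did not overlap, with a log2 difference of -0.50 (limma adjusted p 0.075).

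Membrane inhibitors and the relay gave the smallest p values for Tβ4. Daam2, a formin of the branch that runs from Dishevelled to actin and a known regulator of glial development, held 505, 523, 401 and 515 normalized counts in Tβ4 libraries and 209, 295, 309 and 250 in control libraries. The groups did not overlap, with a log2 difference of 0.88 ± 0.17 and an unadjusted p of 0.000167, but a limma adjusted p of 0.442. Apcdd1, a membrane protein that binds Wnt and Lrp5 and blocks the signal, held 538, 388, 497 and 401 counts in Tβ4 libraries and 265, 215, 335 and 265 in control libraries. These groups did not overlap either, with a log2 difference of 0.76 ± 0.18 (limma adjusted p 0.442). The authors' deposited table had both below 0.05 for Tβ4, Daam2 at 0.87 (adjusted p 0.0173) and Apcdd1 at 0.75 (adjusted p 0.018). Without Tβ4 library 2 the limma adjusted p was 0.0242 for Daam2 and 0.0248 for Apcdd1, and 354 genes passed in all, against 0 with that library kept.

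Neither gene was shown to differ between Tβ4 and the other peptides. Daam2 averaged 383 ± 107 with NP24, 361 ± 59.8 with Tβ10, 486 ± 57.3 with Tβ4 and 266 ± 45.2 in control, and Apcdd1 averaged 319 ± 55.1 with NP24, 360 ± 43.6 with Tβ10, 456 ± 72.9 with Tβ4 and 270 ± 49.3 in control (SD, n = 4 each). The log2 difference of NP24 from Tβ4 was -0.38 for Daam2 (interval -0.77 to 0.02) and -0.51 for Apcdd1 (interval -0.86 to -0.16), with limma adjusted p values of 0.359 for Daam2 and 0.124 for Apcdd1. The difference of Tβ10 from Tβ4 was -0.44 for Daam2 (limma adjusted p 0.336) and -0.34 for Apcdd1 (0.433). Summed astrocyte markers averaged 13219 ± 1685 with Tβ4 and 9378 ± 892 in control without overlap. NP24 sums, at 10400 to 11186, also lay above the control range of 8570 to 10356. Daam2 and Apcdd1 were also higher on average with NP24 than in control, with overlapping ranges. Within Tβ4, library 2 held the lowest sum, 10796, with the highest Daam2 value, 523, and the lowest Apcdd1 value, 388. The part of astrocyte markers in the Daam2 and Apcdd1 values was not tested.

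**Figure D5:**
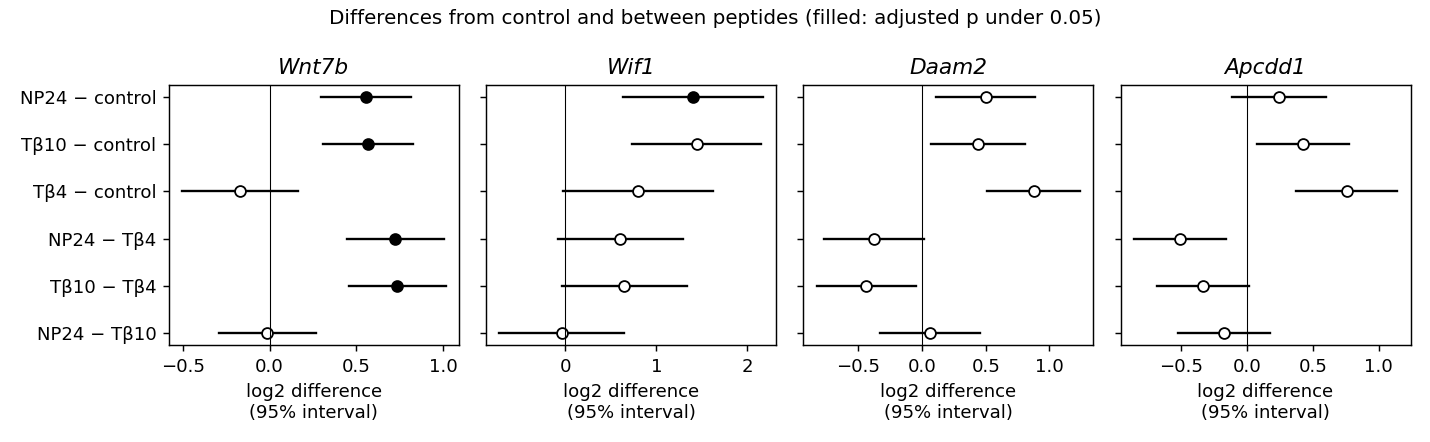
Difference in log2(normalized count + 1) with its 95% interval for Wnt7b, Wif1, Daam2 and Apcdd1 in all 6 comparisons; filled points have a limma adjusted p under 0.05. Wnt7b is filled for NP24 and Tβ10 against control, at 0.55 and 0.57, and against Tβ4, at 0.72 and 0.74; Wif1 is filled for NP24 against control alone.

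The other relay genes did not pass. Ctnnb1 averaged 4284 ± 156 with NP24, 4558 ± 726 with Tβ10, 5143 ± 797 with Tβ4 and 4466 ± 141 in control, with log2 differences from control of -0.06, 0.02 and 0.19. Axin2, a negative regulator that is itself a standard target of β-catenin, had log2 differences of -0.18 (interval -0.49 to 0.13) for NP24, -0.19 (-0.46 to 0.09) for Tβ10 and -0.11 (-0.42 to 0.20) for Tβ4. Dvl1, a Dishevelled gene, held 1182, 1017, 1048 and 1272 counts with Tβ10 and 1338, 1413, 1321 and 1449 in control; these did not overlap, with a log2 difference of -0.29 (limma adjusted p 0.303). Of the 8 relay genes limma called 0 for NP24, Tβ10 and Tβ4, with 1, 2 and 2 at an unadjusted p under 0.05; edgeR also called 0, and DESeq2 called Daam2 for Tβ4.

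Nuclear factors did not pass in the main limma fits. Tcf7l1 held 945, 758, 834 and 880 counts with NP24 and 654, 580, 617 and 714 in control. The groups did not overlap, with a log2 difference of 0.41 ± 0.12 and a limma adjusted p of 0.058. It passed in DESeq2 on recovered reads, with an adjusted p of 0.0177. In limma it passed when scaled to library size (adjusted p 0.0283), with a filter of 50 normalized counts (0.0453) and without NP24 library 2 (0.0344). In the authors' deposited table it did not pass, at a log2 difference of 0.41 (adjusted p 0.34). Lef1, which binds DNA together with β-catenin, was low in most libraries, at 6.49, 13.9, 2.32 and 16.01 counts with NP24, 8.58, 13.3, 17.1 and 22.2 with Tβ10, 162, 20.4, 17.9 and 34.3 with Tβ4 and 10.6, 6.55, 8.06 and 40.0 in control. Its 162 counts stood in Tβ4 library 1.

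Genes of the pathway outside the family were counted beside the share of all genes that limma called, which was 2.63% for NP24, 0.633% for Tβ10 and 0% for Tβ4; with so few genes in each list, the counts are given as a description. Of 16 tested genes that are known Wnt targets in other tissues, such as Ccnd1, Myc and Nkd1, limma, edgeR and DESeq2 called 0 for each peptide against control, with 1, 1 and 2 at an unadjusted p under 0.05 in limma for NP24, Tβ10 and Tβ4. The same tools called 0 of 16 genes of the destruction complex, with 0 at an unadjusted p under 0.05, and 0 of 5 genes of Wnt release, with 1, 0 and 1. Of 14 planar polarity genes, limma, edgeR and DESeq2 called Prickle1 for NP24 and Tβ10, and DESeq2 also called Mapk8 for NP24 (limma adjusted p 0.0515). Prickle1, a core planar polarity protein, held 1185, 955, 1309 and 1288 counts with NP24, 1131, 1003, 1175 and 1276 with Tβ10, 717, 1141, 748 and 703 with Tβ4 and 724, 747, 720 and 707 in control. Its log2 difference from control was 0.70 for NP24 (limma adjusted p 0.00221), 0.66 for Tβ10 (0.00926) and 0.16 for Tβ4 (0.922), and Tβ4 library 2 stood within the range of the NP24 and Tβ10 libraries. The call for Tβ10 was lost without Tβ10 library 3 (limma adjusted p 0.0608) or control library 1 (0.0623). Of 14 nuclear partners, limma called 2 lower with NP24: the corepressor Tle2, with a log2 difference of -0.63 (adjusted p 0.00684), and the Mediator subunit Med12, with -0.51 (adjusted p 0.0187). The other tools called the same pair for NP24, and DESeq2 called Tle2 for Tβ4 (limma adjusted p 0.442). Med12 was not called without NP24 library 1 (limma adjusted p 0.0575) or 3 (0.0792) or control library 1 (0.0862) or 4 (0.0668). Of 11 other receptors limma and edgeR called 0 for each peptide, with 1, 1 and 4 at an unadjusted p under 0.05 in limma for NP24, Tβ10 and Tβ4, and DESeq2 called Gpc4 and Tspan12 for Tβ4. Of 6 other secreted regulators all 3 tools called 0 for each peptide against control, with 2, 1 and 1 at that unadjusted p in limma. Between peptides, all 3 tools called the target Cd44 and the planar polarity gene Celsr1, both lower in NP24 and in Tβ10 than in Tβ4. They also called the receptor Ror1, lower in NP24 than in Tβ4, and DESeq2 called further genes of these lists there. Limma called 2.09% of all genes for NP24 against Tβ4 and 1.35% for Tβ10 against Tβ4.

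Markers of cells other than neurons also moved between groups. Summed fibroblast and meningeal markers lay at 1130 to 1320 normalized counts with NP24, 1217 to 1438 with Tβ10, 2395 to 4328 with Tβ4 and 1728 to 2328 in control; limma called 5 of 6 tested lower for NP24, 4 of 6 for Tβ10 and 0 of 6 for Tβ4 (5 at an unadjusted p under 0.05, 2 by DESeq2), and Lum was at 0 in control. Summed endothelial and pericyte markers lay at 89.9 to 187 with NP24, 77.2 to 181 with Tβ10, 408 to 1184 with Tβ4 and 170 to 376 in control. Of these, limma called the pericyte marker Rgs5 lower for NP24, at 41.2 against 133 normalized counts in control (adjusted p 0.0179), and for Tβ10, at 30.1 (adjusted p 0.0242). Rgs5 averaged 436 with Tβ4 (limma adjusted p 0.409). The endothelial marker Cldn5 was at or near 0 in every group, with at most 3.41 counts in a library. Limma called 1 of 9 astrocyte markers higher for NP24 and for Tβ10, namely Aqp4, and 0 of 11 neuronal markers for any peptide, with 4, 2 and 0 at an unadjusted p under 0.05 for NP24, Tβ10 and Tβ4 and 2 by DESeq2 for NP24. It called 4 of 8 microglial markers lower for NP24 and 2 of 9 for Tβ10, 3 of 8 radial glial markers lower for NP24 and 1 of 8 for Tβ10, and 2 of 8 markers of the oligodendrocyte lineage lower for NP24. The 2 mitochondrial ribosomal RNAs made up 7.15 ± 1.03% of normalized counts with NP24, 7.20 ± 1.96% with Tβ10, 15.3 ± 6.71% with Tβ4 and 11.3 ± 2.07% in control. The part of these differences in the values of Wnt7b, Wif1, Daam2 and Apcdd1 was not tested.

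Promoter sequences are shown for Wif1, which was called, for Axin2, a standard target that was not, and for Wnt5b, the ligand with the highest mean per kb in control. They are RefSeq windows of GRCm38.p6 on the strand of the gene, limited to the bases before a transcript start, and capitals mark CTTTGA, the core of the site bound by Lef1 and the Tcf proteins, which was searched on both strands as CTTTGA and TCAAAG. Windows were available for 41 of the 62 members. Wnt7b had none, so its promoter was not searched. The windows are chr10:121033754-121033959 for Wif1, chr11:108920099-108920348 for Axin2 and chr6:119449387-119449636 (minus strand) for Wnt5b.
Wif1: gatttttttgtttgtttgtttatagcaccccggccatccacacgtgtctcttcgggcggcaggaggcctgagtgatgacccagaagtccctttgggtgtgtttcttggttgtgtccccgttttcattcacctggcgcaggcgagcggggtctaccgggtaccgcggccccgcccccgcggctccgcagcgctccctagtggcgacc
Axin2: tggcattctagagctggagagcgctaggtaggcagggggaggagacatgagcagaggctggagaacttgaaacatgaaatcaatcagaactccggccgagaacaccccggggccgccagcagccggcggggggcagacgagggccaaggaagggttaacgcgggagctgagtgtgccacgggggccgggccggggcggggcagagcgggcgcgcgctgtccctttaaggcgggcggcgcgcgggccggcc
Wnt5b: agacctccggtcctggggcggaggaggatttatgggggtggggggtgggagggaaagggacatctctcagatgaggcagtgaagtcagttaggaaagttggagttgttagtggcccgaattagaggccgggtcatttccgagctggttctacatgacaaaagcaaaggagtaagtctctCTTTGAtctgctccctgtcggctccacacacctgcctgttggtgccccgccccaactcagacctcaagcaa
Wnt5b has 3 windows, of which the one printed was chosen because it held 1 core, 71 bases before a transcript start. That start is internal, as the window lies within the Wnt5b gene (chr6:119432531-119544347). The other windows of Wnt5b held 0, among them the one just before the gene (chr6:119544348-119544597), and the Wif1 and Axin2 windows held 0. The core stood in 13.8% of 32851 windows of 250 bases and in 6 of the 52 windows of members, some of which have several (11.5%), those of Daam1, Dkk1, Fzd1, Lef1, Wnt11 and Wnt5b. A match is a description of letters, and sites outside these windows were not searched.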

How the data were processed

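Total RNA of cultured neurons was sequenced from stranded libraries, per the labels' protocols. Tools named in the submitters' processing notes are featureCounts, DESeq2, FastQC, HISAT and HISAT2, with build GRCm38; their versions, the annotation and the strand setting are not given in the sources used here. The authors deposited 3 tables that hold the same 16 library columns for 45724 genes, as signal, that is, counts scaled by size factors. Reads were recovered as whole multiples of each library's step (tolerance 0.01 reads). The deposited tables also give the authors' log2 fold changes, a Wald score and p-values, used only where the authors' table is named. No column of per-sample values was left unused (0).

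Differences came from limma 3.58.1 in R 4.3.3 (lmFit and eBayes with trend) on log2(value + 1), where 4 or more libraries of the comparison reached 10 normalized counts. P values were adjusted by Benjamini-Hochberg over every gene tested and read at 0.05. A fit of 8 libraries set each peptide against control, and 1 fit of all 16 set peptides against each other. edgeR 4.0.16 and DESeq2 1.42.0 were run on recovered reads as alternatives, and the fits were tested on simulated data. Exon lengths and positions came from GENCODE M21, where 62 members were found by identifier without version, and promoters from RefSeq. Named genes were those called, the 8 with the smallest p against control per peptide and the 3 most abundant per role in control. Rspo4, Lrp5, Dkk3 and others were thus named without passing, and differences between peptides were given for members named this way. Each pathway list with no limma call against control gave the 2 genes with the smallest p. These were Porcn, Vps35, Cd44, Jag1, Fbxw11, Gsk3b, Gpc4, Tspan12, Cthrc1 and Draxin. Other pathway genes were named for a call by limma, edgeR or DESeq2. Axin2, Ccnd1, Myc and Nkd1 were named outside these rules, as known targets. Members, gene lists and rules were chosen with earlier results of these data known. Depth limits low genes: intervals are of the fit over libraries. No 2 libraries of a group agreed within counting noise (lowest chi-square per degree of freedom 9.47).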

Additional observations from a re-analysis of the deposited data

Results flagged for a closer look

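Some libraries lay far from the other 3 of their group in the level of a named gene, by a gap past Dixon's 95% critical value for 4 samples. For normally distributed values, chance puts about 1 in 20 groups past that value. Over all members it was passed in 37 of 246 groups of 4 libraries, 9 of them through Tβ4 library 1 and 7 through NP24 library 2. These 246 include groups near 0, where reads in 1 library alone pass by construction. Fzd10 in control is such a group, at 0.936 in library 2 and otherwise 0. The 37 therefore cannot be set against that rate. In normalized counts, the high libraries were NP24 library 2 for Dvl1 (1689) and Wnt7a (624.6), NP24 library 1 for Dkk3 (500.3), Tβ4 library 1 for Lef1 (162.2), control library 2 for Sfrp2 (145.1), control library 3 for Wnt7b (729.3), and control library 4 for Tcf7 (145.2) and Lef1 (39.99). The low libraries were Tβ10 library 1 for Lrp5 (412.1), Tβ4 library 2 for Ctnnb1 (3959) and Tβ4 library 3 for Daam2 (400.7). The cause was not tested.

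In the fit of all 16 libraries, though not in fits of only the 8 compared, Wnt7b differed between peptides by a test of the difference itself. It was higher in NP24 than in Tβ4 by 0.7232 and in Tβ10 than in Tβ4 by 0.7357 on the log2 scale, with limma adjusted p values of 0.0066 and 0.00611, and in each case 4 of 4 libraries lay above 4 of 4.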

How the results depend on the processing

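No called gene changed direction in any setting run, whereas the median over members changed sign for NP24 against control without control library 3, for NP24 and Tβ10 against Tβ4 when scaled to library size (0.06 and 0.06, against -0.09 and -0.12 in the scaling used), and in several settings for the medians near 0, those of Tβ10 against control and NP24 against Tβ10. Counts of members called moved as follows. For NP24 against control (2 called), 3 were called by DESeq2, with scaling to library size or with a filter of 50 normalized counts, 1 was called without a filter on low values or with a log2 fold threshold of 1, 0 with the spread of all 16 libraries, and 0 to 3 with 1 library left out. For Tβ10 against control (1 called), 2 were called by DESeq2, with scaling to library size or with a pseudocount of 10, 0 with a pseudocount of 0.1, without a filter, with the fold threshold or with the spread of 16 libraries, and 0 to 2 with 1 library left out. For Tβ4 against control (0 called), DESeq2 called 2, and leaving out 1 library gave 0 to 2. For NP24 against Tβ4 (1 called), DESeq2 called 4, the fold threshold and a fit of only the 8 libraries 0, and leaving out 1 library 1 to 5. For Tβ10 against Tβ4 (1 called), DESeq2 called 2, the fold threshold and only 8 libraries 0, and leaving out 1 library 1 to 3. NP24 against Tβ10 stayed at 0 in every setting run.

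The replicate block, with the library number as a term, called 1 member for NP24 and 0 for Tβ10 against control, and its other member counts were as reported. Correlations of same-numbered libraries ran from -0.30 to 0.11, so no pairing by number was seen. With 4 libraries in a group, these correlations cannot exclude a shared origin of same-numbered libraries. Over all genes, 572 were called for NP24 against control, with 1178 by DESeq2, 365 without a filter and 120 with the spread of 16 libraries; for Tβ10 139, with 432 by DESeq2, 91 with the block and 62 with the spread of 16; for Tβ4 0, with 82 by DESeq2 and 2 with the block or the spread of 16; for NP24 against Tβ4 507, with 1172 by DESeq2, 338 without a filter and 109 in only 8 libraries; for Tβ10 against Tβ4 326, with 813 by DESeq2, 614 scaled to library size, 184 without a filter, 214 with the block and 77 in only 8 libraries. Leaving out 1 library gave 106 to 760 genes for NP24 against control, 28 to 315 for Tβ10 and 0 to 354 for Tβ4 against control, 104 to 1392 for NP24 against Tβ4 and 87 to 1052 for Tβ10 against Tβ4; the last 2 were lowest without Tβ4 library 1, all 3 that involve Tβ4 were highest without Tβ4 library 2, and NP24 and Tβ10 against control were lowest without control library 1. The fold threshold left 124, 68, 262 and 168 genes for NP24 and Tβ10 against control and for NP24 and Tβ10 against Tβ4. Scaling to library size moved the median of all genes by 0.14 for NP24 against Tβ4 and by 0.18 for Tβ10 against Tβ4. It also moved the split of calls over all genes to 507 higher and 256 lower for NP24 against control (253 and 319 as reported), 56 and 67 for Tβ10 against control (22 and 117), 363 and 269 for NP24 against Tβ4 (107 and 400), and 449 and 165 for Tβ10 against Tβ4 (72 and 254). Low depth limits genes such as Wif1, Rspo4 and Lef1, whose intervals are wide.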
